A study of Mus musculus with 18 samples.

Results

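The experiment described here asked whether 4-hydroxytamoxifen changed gene expression differently in cultured mouse basophils whose Cebpa gene was flanked by loxP sites (floxed) and in basophils with the normal gene. It comprised 12 of the 18 arrays of the series, taken by their titles, and all 19084 genes for which a probe carried 1 gene symbol. Basophils of C57Bl/6 mice of genotype Cebpa +/+ RosaYFP/creER (called wild type here) or Cebpa f/f RosaYFP/creER (floxed) had been cultured for 5 days with interleukin-3 at 20 ng/ml. For each genotype, 3 arrays held cells given 100 nM 4-hydroxytamoxifen for 5 days and 3 held cells without it, which gives 4 groups of 3 arrays. The wild type cells carried the same inducible Cre recombinase and the same reporter as the floxed cells, so that their response to the drug included every effect of the drug and of active Cre that needs no loxP site in Cebpa. The quantity of interest, the interaction, was the drug effect in floxed cells minus the drug effect in wild type cells, on the log2 scale. No label tells whether the cells were sorted on the reporter after treatment. Nor do they state whether the 3 arrays of a group stand for different mice, different dishes or repeat preparations. The p-values here therefore cover the spread between arrays alone, and that spread may be technical.

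Basophils are rare granulocytes that release histamine, leukotrienes and type 2 cytokines after engagement of their IgE receptor. They share progenitors and many granule products with mast cells. C/EBP-alpha, the product of Cebpa, is a basic leucine zipper transcription factor of granulocyte and monocyte development that is needed for the basophil fate. MITF, a basic helix-loop-helix leucine zipper factor, is needed for mast cells, where it drives Kit and granule protease genes. 4-hydroxytamoxifen binds the mutated estrogen receptor domain fused to the Cre recombinase and lets it enter the nucleus, where it removes DNA between loxP sites. The Rosa26 locus, which holds the fusion and the reporter, is active in most cell types.

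The arrays had median intensities of 24 to 39 and means of 463 to 597. An intensity of 30, the limit used here for background, was exceeded by 47.3% to 54.1% of probes. Arrays of a group correlated at Pearson's r of 0.990 to 0.993 across probes, and for probes brighter than 100 the median SD within groups was between 0.079 and 0.10 log2 units. Of the 19084 genes, 10950 were above background (over 30 on at least 1 array) in all 4 groups and 6296 were at background in all of them. Precision is limited by how many arrays there are, and the median SE of the interaction over the 10950 genes was 0.15 log2 units. Intensities below are quantile normalized, log2 values are taken of the intensity plus 16, and the errors beside log2 values are SEs from the fit with n = 3 arrays a group.

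Cebpa itself, the targeted gene, read 2219, 2533 and 2166 on the untreated and 2894, 2746 and 2472 on the treated wild type arrays. On the floxed arrays it read 1019, 903 and 926 for untreated cells and 68.7, 69.0 and 57.5 for treated cells. The 3 treated floxed arrays lay below all 9 others, and the untreated floxed arrays already lay below all wild type arrays. The drug effect was -3.58 ± 0.10 log2 units in floxed cells, a 11.9-fold fall, and 0.23 ± 0.10 in wild type cells (adjusted p = 0.147). The interaction was -3.80 ± 0.14 (adjusted p = 3.04e-08). In untreated cells its level was 2.40-fold lower in floxed than in wild type cells (-1.26 ± 0.10, adjusted p = 4.67e-06), so the interaction measures the part of the genotype difference that came with the drug. The position of the probe relative to the loxP sites is unknown here.

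Mitf rose with the drug in floxed cells and fell in wild type cells. Its intensity was 553, 582 and 574 on untreated and 445, 412 and 395 on treated wild type arrays, against 384, 386 and 404 on untreated and 1751, 1733 and 1572 on treated floxed arrays. Treated floxed arrays were the highest and did not overlap any other group, whereas untreated floxed arrays lay below untreated wild type arrays. The drug effects were 2.06 ± 0.081 in floxed and -0.44 ± 0.081 in wild type cells, which gave an interaction of 2.50 ± 0.12 (adjusted p = 9.91e-08). The fall in wild type cells did not pass with median scaling of the arrays, while the interaction passed under every alternative run (2.23 to 2.67).

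Promoter windows of the 250 bases before the RefSeq start (GRCm38.p6) are shown for Mitf and for a pair of genes described below, Ptgs2 and Gadd45a, because these windows hold the letters TTGCNNAA, an 8-letter core like that bound by C/EBP factors; capitals mark it, and each sequence is written along the gene's own strand.
Mitf, chr6:97806808-97807057, plus strand: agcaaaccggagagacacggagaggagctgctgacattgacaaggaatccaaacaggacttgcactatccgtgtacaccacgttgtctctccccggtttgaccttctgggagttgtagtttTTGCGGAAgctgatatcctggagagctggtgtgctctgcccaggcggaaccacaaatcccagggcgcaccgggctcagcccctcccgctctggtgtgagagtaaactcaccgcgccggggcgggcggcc
Ptgs2, chr1:150099781-150100030, plus strand: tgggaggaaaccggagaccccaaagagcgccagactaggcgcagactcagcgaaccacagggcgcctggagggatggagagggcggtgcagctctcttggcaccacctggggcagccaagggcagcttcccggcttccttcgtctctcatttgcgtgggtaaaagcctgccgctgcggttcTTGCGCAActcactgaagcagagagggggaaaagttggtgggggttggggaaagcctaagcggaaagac
Gadd45a, chr6:67037408-67037657, minus strand: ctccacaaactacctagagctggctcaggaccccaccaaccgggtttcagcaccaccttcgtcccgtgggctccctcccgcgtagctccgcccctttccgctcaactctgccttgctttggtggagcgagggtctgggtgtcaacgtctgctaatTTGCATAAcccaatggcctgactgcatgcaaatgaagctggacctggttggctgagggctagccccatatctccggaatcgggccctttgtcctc
The core starts 129 bases before the start in Mitf, which has 3 such windows in the table and the letters in 1 of them, 69 bases before it in Ptgs2 and 95 in Gadd45a. Windows were found for 14953 of the 19084 genes. The letters, read on both strands, occurred in the windows of 9.80% of these genes, of 13.5% of genes whose interaction was at least 1 log2 unit below 0 and of 11.6% of those at least 1 above 0. The palindromic E-box CACGTG occurred in 8.44%, 6.77% and 9.54% of the same groups, and CATGTG, the other E-box letters searched, in 10.5%, 13.5% and 5.81%. A match of letters is a description of the window and shows no binding.

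Across the table, the interaction passed the test (limma, Benjamini-Hochberg adjusted p under 0.05) for 2482 of 19084 genes, which is 13.0%, and for 2976 of 26423 probes (11.3%). It was above 0 for 1226 genes (6.42%) and below 0 for 1256 (6.58%), and its size was at least 1 log2 unit for 557 genes, 305 above and 252 below 0. The split depended on scaling: the share above 0 among called genes was 49.4% here, 27.8% with median scaling, 79.8% without between-array normalization and 47.2% with scaling on probes over an intensity of 100. Median scaling moved the median interaction of all genes to -0.14 and leaving out normalization moved it to 0.13, from -0.0058. The drug effect itself passed for 21.1% of genes in floxed and 23.4% in wild type cells. Its split depended on scaling as well. In wild type cells 51.4% of called genes rose here, 66.4% with median scaling and 21.1% without between-array normalization. In floxed cells the shares were 50.2%, 34.6% and 51.9%. Across the 10950 genes above background, the drug effects in the 2 genotypes, which share no arrays, had Pearson's r of 0.357, and 64.7% had the same sign. The plot of drug effects shows the genes past the test on both sides of the diagonal.

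**Figure D1:**
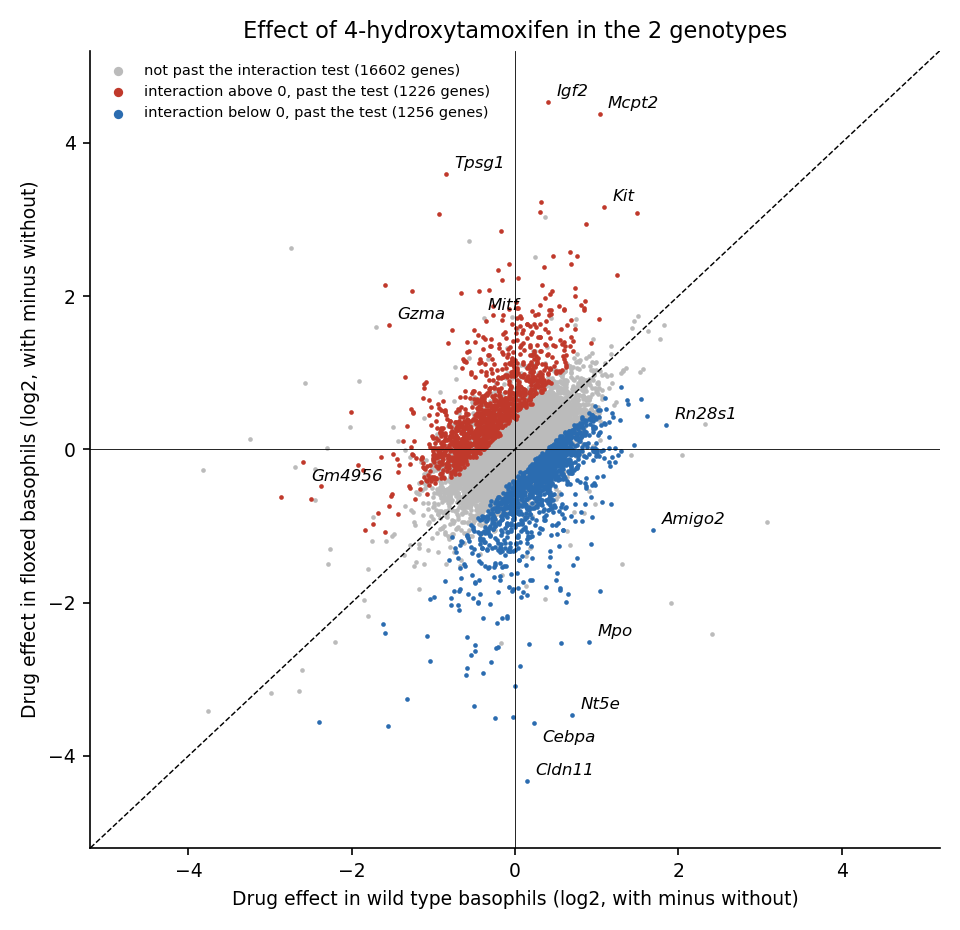
Each point is a gene, with its drug effect in wild type basophils on the x axis and in floxed basophils on the y axis, both as log2 differences of treated minus untreated cells (3 arrays a group). The dashed diagonal marks equal effects; 1226 genes past the interaction test lie above it, led by Tpsg1 and Igf2, and 1256 below it, led by Cldn11 and Nt5e.

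The called genes were split by the genotype whose own drug effect passed the test. In 905 genes (36.5%) the drug effect passed in floxed cells alone, and in 900 (36.3%) it passed in wild type cells alone. It passed in both genotypes in opposite directions in 300 genes (12.1%), in both in the same direction in 289 (11.6%) and in neither in 88 (3.55%). Sizes differed between these classes. At least 1 log2 unit of interaction was found in 245 of the 905 genes that moved in floxed cells alone and in 82 of the 900 that moved in wild type cells alone. The corresponding counts were 159 of the 300 genes with opposite effects, 71 of 289 with effects in the same direction and 0 of the 88 with neither. Among genes moving the same way, the effect was larger in floxed cells for 95 of 137 genes above 0 and for 107 of 152 below 0. An effect that passed in 1 genotype alone is not shown to be absent in the other; the interaction is the test of their difference. With median scaling the floxed alone class held 658 genes, the wild type alone class 321, the opposite class 92 and the same-direction class 64.

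**Figure D2:**
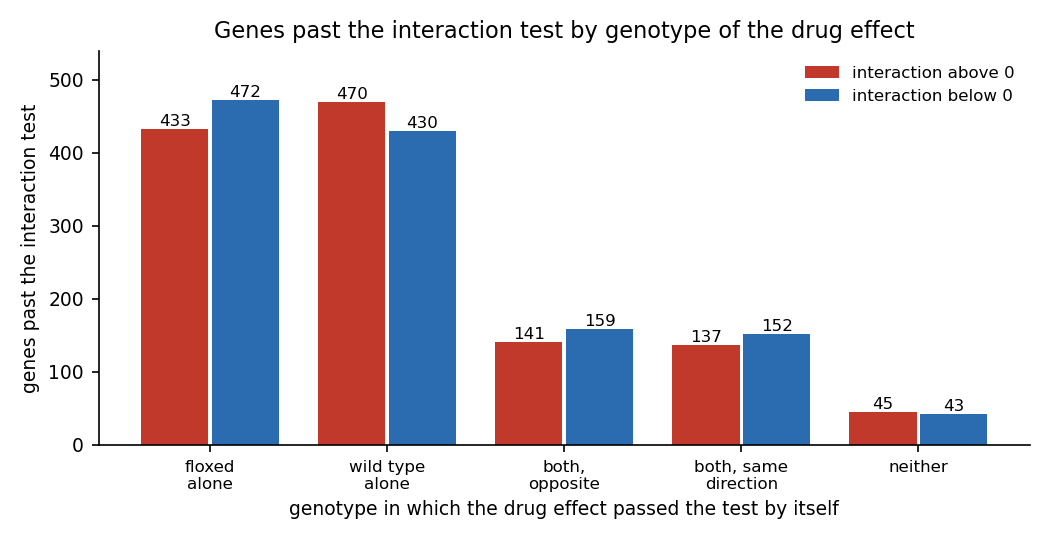
Bars count genes past the interaction test, by the genotype in which the drug effect passed the test by itself, for interactions above 0 (red) and below 0 (blue). Floxed alone holds 433 genes above and 472 below 0 and wild type alone 470 and 430; with median scaling these classes held 658 and 321 genes in all.

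Genes that fell with the drug in floxed cells led the interactions below 0. Nt5e, which encodes the ectoenzyme CD73 that makes adenosine from AMP, read 5556, 5361 and 5187 in untreated and 448, 498 and 468 in treated floxed cells. In wild type cells it read 4726, 4369 and 4562 without and 7059, 7586 and 7562 with the drug. The treated floxed arrays were thus the lowest and the treated wild type arrays the highest, with no overlap between the groups with and without drug in either genotype. The effects were -3.47 ± 0.079 and 0.70 ± 0.079, and the interaction -4.17 ± 0.11 (adjusted p = 3.52e-09). Untreated cells of the 2 genotypes differed by 0.24 ± 0.079 (adjusted p = 0.0692).

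Cldn11, a claudin of tight junctions, was the gene with the largest lower bound. It read 643, 693 and 683 in untreated and 767, 724 and 743 in treated wild type cells, and 580, 466 and 496 in untreated floxed cells. In treated floxed cells it read 5.33, 16 and 10.4, at background on all 3 arrays, so that only a bound exists: with dim values raised to 30, the drug effects differed at least 18.9-fold. The adjusted p of the interaction was 4.96e-08. The wild type effect was 0.14 ± 0.13 (adjusted p = 0.528).

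Igsf6, an immunoglobulin superfamily receptor gene of myeloid cells, fell in floxed cells from 2644, 2328 and 2435 to 204, 196 and 213. Wild type arrays read 12405, 12405 and 11031 without and 11371, 11972 and 11972 with the drug and overlapped. The interaction was -3.47 ± 0.12, and untreated floxed cells were already 4.81-fold below untreated wild type cells. Smpdl3b, a phosphodiesterase of the sphingomyelinase family, fell from 3009, 2675 and 2716 to 318, 288 and 340.5 in floxed cells. Its wild type arrays ranged from 2150 to 2578 over both conditions, and its interaction was -3.08 ± 0.14. Ms4a3, a membrane protein gene of granulocyte progenitors, fell in both genotypes, with drug effects of -0.40 in wild type and -2.92 in floxed cells, with an interaction of -2.52 ± 0.13, and the fall in wild type cells was not called with median scaling.

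Receptors for neutrophil chemokines were among the lowest. Cxcr2, a receptor for CXCL1 and CXCL2, fell from 2809.96, 2794 and 2645 to 221, 235 and 228 in floxed cells. In wild type cells it went from 4680.5, 5132 and 4764 to 4122, 4145 and 4009.8, a fall of far smaller size (-0.25 ± 0.076 against -3.50 ± 0.076), and the interaction was -3.26 ± 0.11. The fall in wild type cells was not called with median scaling. Cxcr1, its close relative, read 997, 1044 and 1006 in untreated and 134, 140.2 and 113 in treated floxed cells, and 621 to 795.5 over the 6 wild type arrays. Its untreated floxed arrays were above all wild type arrays and its treated floxed arrays below all of them, so the genotype gap turned with the drug (interaction -2.90 ± 0.15).

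Mpo, Prtn3 and Elane, proteins of neutrophil primary granules, were lower in the interaction, whereas Ctsg, cathepsin G of the same granules, was higher (0.69 ± 0.19). Mpo, myeloperoxidase, went from 696, 608 and 608 to 87.1, 108 and 99.6 in floxed cells. In wild type cells it went from 808, 766 and 728 to 1470.1, 1491 and 1397. The groups with and without drug did not overlap in either genotype, and the interaction was -3.42 ± 0.13. Prtn3, the serine protease proteinase 3, had effects of -2.53 ± 0.13 in floxed and 0.56 ± 0.13 in wild type cells and an interaction of -3.09 ± 0.18, though the rise in wild type cells was not called without normalization. Elane, neutrophil elastase, read 94.3, 98.0 and 102 in treated wild type cells and 7.33, 10.1 and 7.25, at background, in treated floxed cells, which gave a bound of at least 3.07-fold. The summed intensity of 8 neutrophil markers, Mpo and Elane among them, was 5331 to 6019 on untreated and 1784 to 1991 on treated floxed arrays. On wild type arrays it was 11939 to 13646 without and 11228 to 11632 with the drug. The sum thus did not rise with the drug in wild type cells, whereas Mpo, Prtn3 and Elane did. Of the 8 markers 5 were lower in the interaction, and S100a8 was at background in all groups. The part of neutrophil-lineage cells in the result was not tested. In RNA from whole cultures, fewer cells of a type and less RNA per cell cannot be told apart.

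Amigo2, a cell adhesion molecule, was 840.2, 776 and 804 in untreated and 2563, 2808 and 2557 in treated wild type cells. In floxed cells it was 237, 269.9 and 263 and 111, 117 and 117. It rose in wild type cells (1.69 ± 0.083) and fell in floxed cells (-1.05 ± 0.083), with an interaction of -2.75 ± 0.12, and both of its probes passed. Itgam, the alpha chain of the complement receptor CD11b/CD18, fell from 2777, 3446 and 3165 to 649, 708 and 650 in floxed cells and had an interaction of -2.09 ± 0.13. Id1, an inhibitor of basic helix-loop-helix factors, fell from 4426, 4051 and 4149.8 to 665, 709 and 749, while its wild type arrays ranged from 7659.8 to 11283. Its interaction was -2.72 ± 0.16.

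The mast cell tryptase gene Tpsg1 had the largest interaction above 0. Tpsg1, the transmembrane tryptase gamma, read 351, 472 and 477 in untreated and 5716, 5591 and 4785 in treated floxed cells. In wild type cells it read 697, 612 and 720.4 without and 332, 378 and 393 with the drug. The treated floxed arrays were the highest by far, and treated wild type arrays lay below untreated ones. The effects of 3.59 ± 0.13 and -0.85 ± 0.13 gave an interaction of 4.44 ± 0.18 (adjusted p = 4.56e-08). Tpsb2, a secreted tryptase of connective tissue mast cells, followed the same pattern. Its intensity was 854, 1110.3 and 1102 and then 8874, 9541 and 7538 in floxed cells, and 1147, 1131 and 1289 and then 622, 604 and 615 in wild type cells. Its interaction was 4.00 ± 0.17.

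Several other mast cell genes rose in both genotypes and more so in floxed cells. Mcpt2, a mucosal mast cell chymase, read 484, 444 and 584 in untreated and 962, 1049 and 1123 in treated wild type cells. In floxed cells it read 30.2, 53.9 and 51.8 and 1636, 1035 and 1105, so treated cells of both genotypes overlapped and untreated cells did not. Its interaction of 3.34 ± 0.27 stood beside a gap without the drug (-3.10 ± 0.19). Kit, the receptor for stem cell factor, rose from 2040.1, 2162 and 2285 to 4324, 4479 and 5109.5 in wild type cells and from 1391, 1572 and 1452 to 13048, 14902 and 12018 in floxed cells. The lowest of the treated floxed arrays exceeded the highest wild type array, and the interaction was 2.07 ± 0.15. Hs6st2, a heparan sulfate sulfotransferase, rose 8.52-fold in floxed and 1.23-fold in wild type cells, from 458 to 507 on the untreated arrays of both genotypes; the rise in wild type cells was not called with median scaling or without normalization. Tph1, the first enzyme of serotonin synthesis, had a mean of 1396 in untreated and 8089 in treated floxed cells, against 1616 and 2233 in wild type cells (interaction 2.06 ± 0.13).

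**Figure D3:**
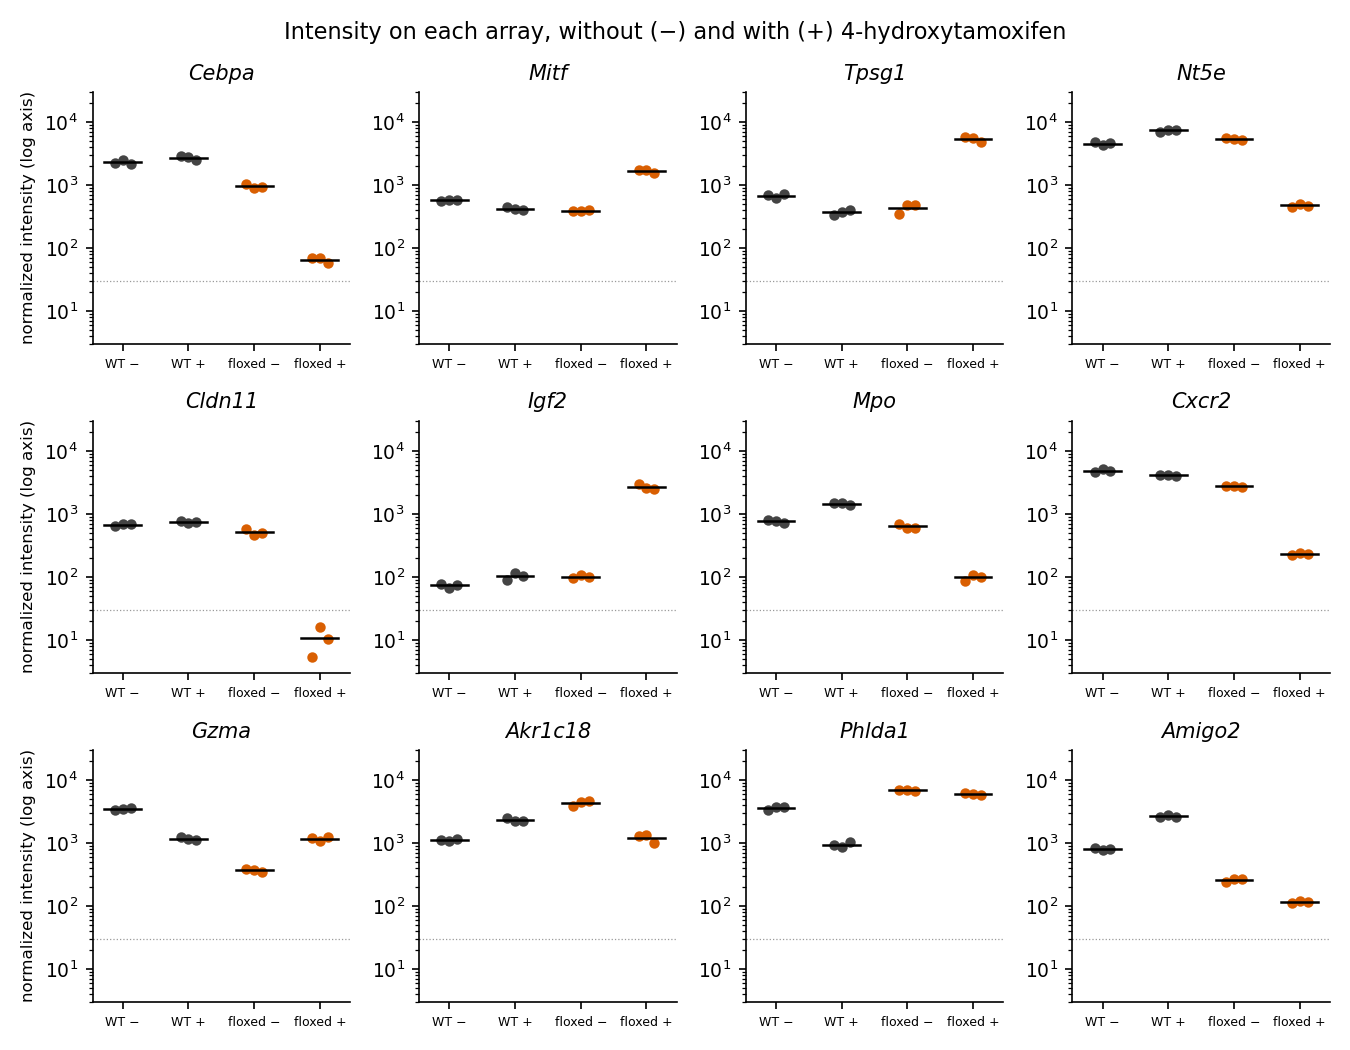
Normalized intensity (log axis) of 12 named genes on each of the 12 arrays, by group, with wild type (WT) in grey and floxed in orange, without (−) and with (+) the drug; bars are group means and the dotted line is the background limit of 30. Treated floxed arrays stand apart for Cebpa, Mitf, Tpsg1, Nt5e, Cldn11, Igf2, Mpo and Cxcr2, whereas the genotypes differ most without the drug for Gzma, the gap turns for Akr1c18, and Phlda1 moves in wild type cells.

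Igf2, Ahi1 and Cnga1, genes outside the mast cell list, reached similar sizes, as did Rprm, a member of that list. Igf2, an insulin-like growth factor, read 95.2, 106 and 98.9 in untreated and 2964, 2551 and 2525 in treated floxed cells. The wild type arrays read 77.6, 67.1 and 74.3 and 90.3, 114 and 103. The interaction of 4.13 ± 0.14 (adjusted p = 1.72e-08) came almost wholly from floxed cells (4.53 ± 0.10 against 0.41 ± 0.10). Ahi1, a gene of the ciliary transition zone, rose from 484, 447 and 394 to 4059.9, 4119 and 4612 in floxed cells, with all wild type arrays between 319 and 484. Its interaction was 2.91 ± 0.15. Rprm, reprimo, a gene linked to cell cycle arrest, rose from 332, 401 and 381 to 3288, 2626 and 2468 in floxed cells and lay between 178 and 211 in wild type cells, with an interaction of 3.02 ± 0.16. Cnga1, a cyclic nucleotide-gated channel subunit, had an interaction of 2.55 ± 0.13 and a wild type drug effect of -0.21 ± 0.093 (adjusted p = 0.143).

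A group of genes differed between the genotypes before the drug, and the drug turned that difference. Clca1, a secreted regulator of chloride channels, fell in wild type cells from 971, 979 and 918 to 307, 319 and 291. In floxed cells it rose from 176, 214 and 199 to 1036, 861 and 863. Untreated wild type and treated floxed arrays thus overlapped, above both other groups (interaction 3.73 ± 0.14). Frzb, a secreted Wnt antagonist, had effects of -1.27 ± 0.099 in wild type and 2.06 ± 0.099 in floxed cells and an interaction of 3.33 ± 0.14. Akr1c18, a 20-alpha-hydroxysteroid dehydrogenase, did the opposite. It rose from 1103, 1076 and 1159 to 2486, 2236 and 2216 in wild type cells and fell from 3903, 4461 and 4715 to 1302, 1353 and 979.6 in floxed cells, with an interaction of -2.89 ± 0.17.

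In other genes the genotype difference passed the test without the drug and not with it. Gzma, the serine protease granzyme A, fell from 3314, 3417 and 3535 to 1250.2, 1143 and 1108 in wild type cells and rose from 380.2, 370.5 and 345 to 1189.7, 1058 and 1224 in floxed cells. Treated cells of both genotypes overlapped. The interaction of 3.16 ± 0.12 stood beside an untreated gap of -3.17 ± 0.088. Pkd2l1, a polycystin family channel, read 1015, 1116 and 1100.2 in untreated floxed cells and 66.2 to 143 in all other groups, with an interaction of -2.84 ± 0.20. Atf5, a stress-responsive leucine zipper factor, and Thy1, a surface glycoprotein, were of this kind too (1.97 ± 0.16 and -1.42 ± 0.15). In all 2482 called genes, the genotype gap passed with the drug alone in 1443 (58.1%), without the drug alone in 251 (10.1%) and in both conditions in the same direction but wider with drug in 528 (21.3%). It was narrower with drug in 58, turned its sign in 137 (5.52%) and passed in neither condition in 65. Over all genes this gap passed for 17.3% without and 34.1% with the drug. Of the 20 most extreme genes above background, 7 had a gap with the drug alone, 5 a wider gap, 5 a turned gap and 3 a gap without the drug alone. This grouping was defined after the values were seen. With median scaling 797 genes had a gap with the drug alone, 162 a wider gap and 56 a turned gap.

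In 900 genes the drug effect passed in wild type cells and not in floxed cells. Phlda1, a pleckstrin homology-like gene induced by growth signals, fell from 3349.5, 3703 and 3668 to 921, 846 and 1020.1 in wild type cells. In floxed cells it read 6989.8, 6888 and 6804 without and 6214, 5973 and 5791 with the drug (floxed effect -0.20 ± 0.088, adjusted p = 0.147), and the interaction was 1.73 ± 0.12. Gm4956, a predicted gene, fell from 306, 301 and 286 to 39.3, 33.2 and 35.2 in wild type cells, with 297 to 391 on the floxed arrays and an interaction of 2.43 ± 0.13. Ids, a lysosomal sulfatase, had an interaction of 1.80 ± 0.29. Itga6, an integrin alpha chain, rose from 181, 168 and 169.5 to 435, 429 and 448 in wild type cells and read 142 to 175 in all floxed arrays (interaction -1.34 ± 0.12). Paip1, a regulator of translation, had an interaction of -1.41 ± 0.24. Rn28s1, a 28S ribosomal RNA gene, rose from 1260.3, 1307 and 1491 to 4702, 4966 and 5002 in wild type cells and read 338 to 600 in floxed cells (interaction -1.53 ± 0.21). The level of this ribosomal RNA thus moved with treatment in wild type cells, and its part in other results was not tested.

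Of the called genes, 293 had a group at background, and for them the interaction is given as a bound where one exists. Above 0 these were Gm5544, a predicted gene (at least 6.33-fold), Cxadr, the coxsackievirus and adenovirus receptor (at least 2.95-fold), Mab21l1 (at least 2.86-fold), Jcad, a junction-associated gene (at least 2.22-fold), and Hkdc1, a hexokinase domain gene (at least 2.14-fold). Gm5544 read 270.2, 247 and 304 in treated floxed cells and 15.8 to 57.1 elsewhere. Below 0, after Cldn11, were the secreted protease Htra1 (at least 3.79-fold), Elane, the inducible heat shock gene Hspa1b (at least 2.62-fold) and the protocadherin Pcdh7 (at least 2.60-fold). Pcdh7 went from 102, 125 and 122 to 4.33, 8.08 and 7.25 in floxed cells and from 108, 121 and 117 to 76.2, 81.0 and 75 in wild type cells, and both of its probes passed. The 88 genes in which neither drug effect passed had small interactions, such as those of Polr2k, an RNA polymerase II subunit (0.99 ± 0.28, adjusted p = 0.0444), Kifbp (0.90 ± 0.24, adjusted p = 0.028) and Gclc, an enzyme of glutathione synthesis (-0.73 ± 0.20, adjusted p = 0.0331). In the same class, Eri1 (-0.72 ± 0.20) and Nwd1 (-0.69 ± 0.18) were below 0. Each of these 5 calls was lost in 8 or more of the 24 alternatives, including arrays of several groups left out in turn.

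Gene lists, written with earlier results of these data known, are given next by counts of members past the interaction test, to be read against 6.42% of all genes above and 6.58% below 0 and a median of -0.0058. Mast cell markers were mostly above 0: of 18 measured members, 12 were higher and 1 lower, with a median of 1.65 (1.40 to 1.85 under the scalings). The 12 held Mitf, Kit, Tpsb2, Tpsg1, Cma1, Mcpt2, Tph1, Ndst2, Hs6st2, Gzmb, Rprm and Smpx, the last with 3 groups at background. Cma1, a chymase, went from a mean of 6098 to 27111 in floxed cells and from 8604 to 10856 in wild type cells (interaction 1.81 ± 0.12). Slc6a4, the serotonin transporter, was the member called lower (-1.74 ± 0.18): its mean rose from 1813 to 3836 in wild type cells and fell from 852 to 523 in floxed cells. Tpsab1 and Mrgprb1 were at background in all groups, and Cpa3, carboxypeptidase A3, had group means of 64145 to 65346, near the top of the scale, where differences cannot be read. The drug by itself raised 12 members and lowered 1 in floxed cells (10.6% and 10.5% of all genes), and raised 8 and lowered 4 in wild type cells (12% and 11.4% of all genes). Summed over 8 mast cell markers, intensity was 125500 to 134320 on treated floxed arrays and 75915 to 85932 on the other 9. With Cpa3 left out, the other 7 markers summed to 60402 to 69035 on treated floxed arrays and to 10444 to 20648 on the other 9.

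Basophil markers were mostly below 0 or not called: 1 of 18 was higher and 6 were lower, at a median of -0.23. Prss34, a tryptase of basophils also known as mMCP-11, was lower (-0.99 ± 0.11); its mean fell from 42067 to 19977 in floxed cells and was 48889 and 46184 in wild type cells. Il18rap, a chain of the interleukin-18 receptor, fell in floxed cells from 801, 866 and 924 to 403, 419 and 359 and rose in wild type cells from 854, 826 and 898 to 1211, 1214 and 1263 (interaction -1.61 ± 0.12); that rise was not called without normalization. Cd9, a tetraspanin, had an interaction of -1.24 ± 0.15, made mainly by a rise in wild type cells (0.87 ± 0.11). Itga2, the alpha chain of CD49b, was at background in treated floxed cells (at least 2.57-fold). The list members Mcpt8, a basophil protease, and Cd200r3, an activating receptor, did not pass (0.15 ± 0.15 and -0.012 ± 0.13). Their group means were 48261 to 51094 and 23561 to 26516. By these means, Mcpt8 and Cd200r3 were bright in all 4 groups. The summed intensity of 8 basophil markers was 145852 to 152458 on treated floxed and 165446 to 179680 on other arrays. That sum holds Mcpt8, Cd200r3 and Prss34, and does not show the level of dimmer markers. The drug effects in floxed cells were 0.076 log2 units for Mcpt8, 0.070 for Cd200r3 and -1.07 for Prss34. The 1 member called higher was Il13, whose call (0.94 ± 0.28, adjusted p = 0.0479) was lost in 13 of 24 alternatives.

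Of 14 granule proteases, 8 were higher and 3 lower (median 0.68). Higher were the tryptases and chymases above together with Gzma, Gzmb, Gzmc and Ctsg, cathepsin G (0.69 ± 0.19); lower were Prss34, Elane and Prtn3. In the neutrophil list, 9 of 19 members were lower and 2 higher (median -0.24). Among the lower were Padi4, an arginine deiminase (-1.86 ± 0.13), S100a9, a calgranulin (-1.39 ± 0.15), Lcn2, an iron-binding lipocalin (-1.26 ± 0.13), and Ncf1, an oxidase subunit (-0.70 ± 0.13). The 2 higher were Ctsg and Retnlg. Retnlg, a resistin-like gene of neutrophils, had a mean of 12209 in untreated and 1655 in treated wild type cells, and of 1964 and 1266 in floxed cells. Its interaction of 2.24 ± 0.16 thus came from a fall that was larger in wild type cells.

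**Figure D4:**
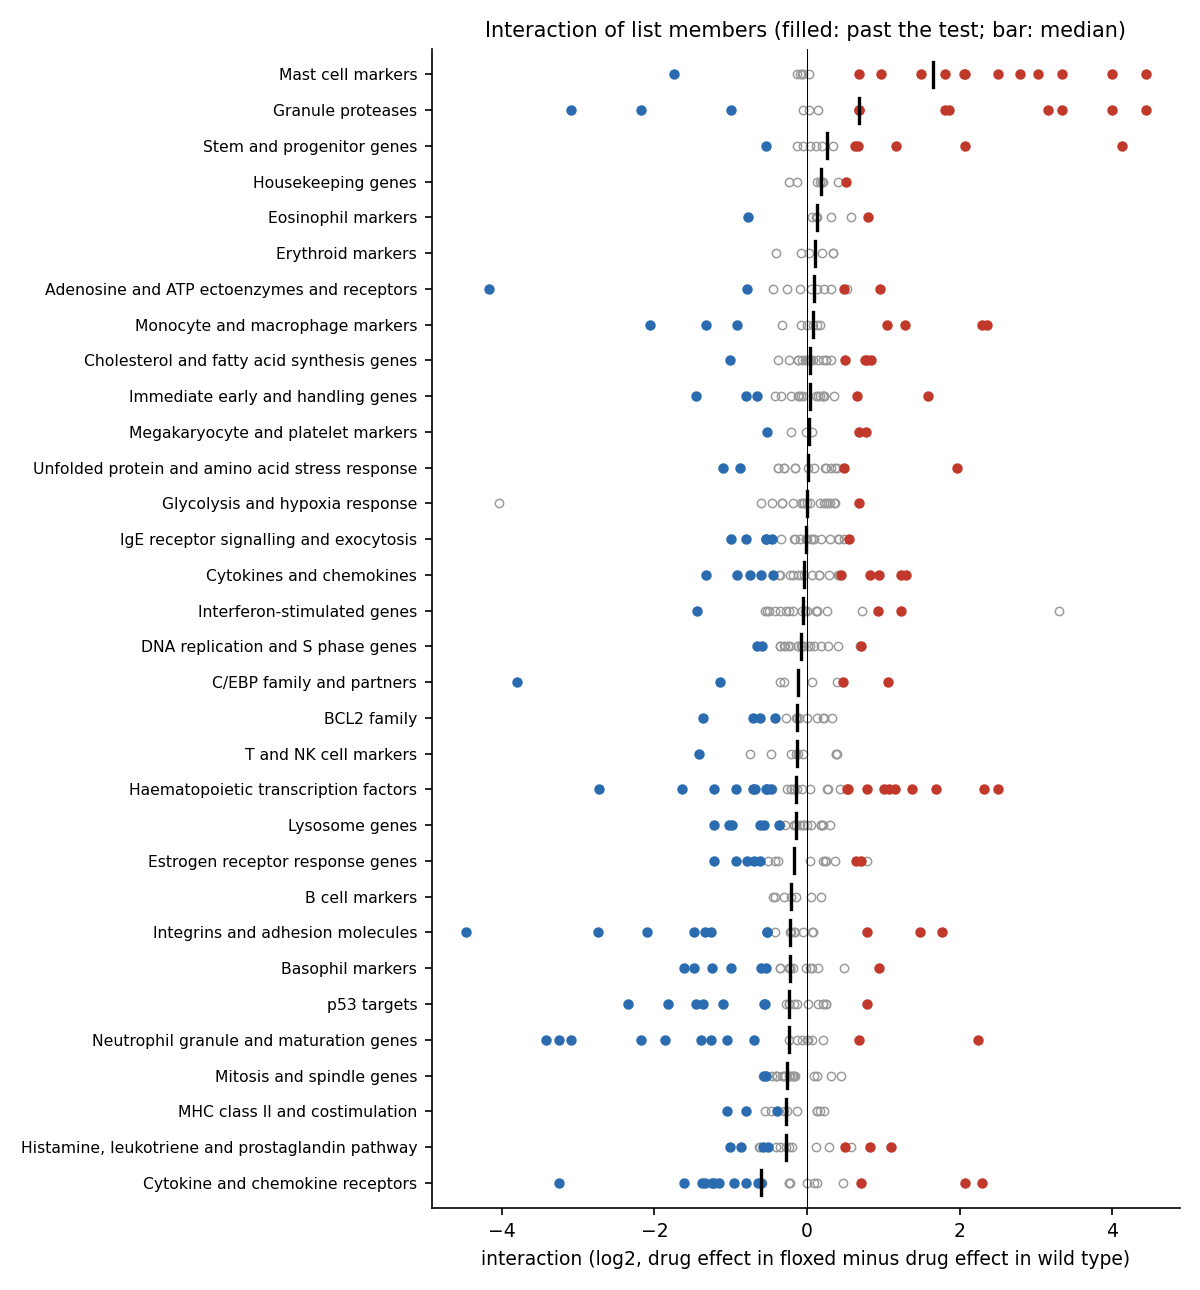
Interaction (log2, x axis) of each measured member of 32 gene lists (rows), with filled points for members past the test, open points for others and a bar at the list's median. Mast cell markers have a median of 1.65, with 12 of 18 members past the test above 0, and cytokine and chemokine receptors a median of -0.60, with 11 of 22 past it below 0.

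Of 22 cytokine and chemokine receptors, 11 were lower and 3 higher, with a median of -0.60 (-0.79 to -0.40 under the scalings). The 3 higher were Kit, Il4ra (0.71 ± 0.13) and Ccr2, a monocyte chemokine receptor, which rose in floxed cells from 2125, 1973 and 2056 to 3971, 3848 and 4071 and fell in wild type cells from 1856, 2121 and 1577 to 687, 695 and 762 (interaction 2.29 ± 0.15, both probes passing). Besides Cxcr2 and Il18rap, the lower members included Il7r (-1.37 ± 0.11), Ccr1 (-1.34 ± 0.15), C3ar1, a complement receptor (-1.25 ± 0.19), Il18r1 (-1.22 ± 0.16) and Cxcr4 (-1.15 ± 0.14). The interleukin-3 receptor chains Il3ra and Csf2rb did not pass (-0.23 ± 0.17 and -0.22 ± 0.16). Among 23 cytokines and chemokines, 5 were higher and 5 lower. Csf1, macrophage colony-stimulating factor, fell in floxed and rose in wild type cells (-1.32 ± 0.14, the rise not called without normalization), while Cxcl10, an interferon-induced chemokine, fell in wild type cells (-0.96 ± 0.19, interaction 1.24 ± 0.26). Csf2 had an interaction of 1.29 ± 0.34 (adjusted p = 0.0309) that was lost in 8 of 24 alternatives. The basophil cytokines Il4 and Il6 did not pass (-0.22 ± 0.16 and -0.35 ± 0.21).

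Transcription factors of blood cells went both ways, 10 of 32 higher and 9 lower; with median scaling 6 and 6 passed, and without normalization 11 and 5. After Mitf, the largest above 0 was Myb, a progenitor factor, which rose from 317, 292 and 309 to 928, 879.8 and 976 in floxed cells and fell from 381, 432 and 421 to 225, 218 and 264 in wild type cells (interaction 2.32 ± 0.13). Id2, an inhibitor of helix-loop-helix factors, was higher (1.70 ± 0.16), in contrast to Id1. Also higher were the Ikaros family gene Ikzf2 (1.37 ± 0.17), Runx3 (1.08 ± 0.16) and Gfi1b (1.01 ± 0.13). The MITF relatives Tfec (-1.63 ± 0.11) and Tfe3 (-0.70 ± 0.17) were lower. Gata2, a factor of both basophils and mast cells, and Gata1 did not pass (0.036 ± 0.14 and 0.26 ± 0.15). In the C/EBP family, 2 of 8 members were higher and 2 lower. Cebpd fell in floxed cells from 71.7, 84.4 and 89.5 to 41.4, 32.2 and 20.5 (interaction -1.14 ± 0.22), and Cebpg, which lacks a strong activation domain, rose from 86.2, 95.2 and 72.9 to 162, 164 and 152 (1.06 ± 0.16). Cebpb (-0.30 ± 0.17) and Cebpe (0.07 ± 0.16) did not pass. In the stem and progenitor list 5 of 12 were higher and 1 lower, with Kit, Igf2 and Ctla2b, a cysteine protease inhibitor gene (1.17 ± 0.13, not called with median scaling), at the top.

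Of 17 members of the histamine, leukotriene and prostaglandin list, 3 were higher and 4 lower. Ltc4s, leukotriene C4 synthase, rose from 4175, 4308 and 4360.5 to 6468, 6979 and 6573 in floxed cells and fell from 2498, 2273 and 2430 to 1837, 1717 and 1636 in wild type cells (interaction 1.11 ± 0.11); neither drug effect was called with median scaling. Ptgs2, the inducible cyclooxygenase, fell from 211, 241 and 244 to 100.1, 107 and 99.6 in floxed cells (-1.01 ± 0.15), and Ptger3, a prostaglandin E receptor, was lower too (-0.87 ± 0.12). Hdc, histidine decarboxylase, did not pass (-0.35 ± 0.12). Of 21 genes of IgE receptor signalling and exocytosis, 1 was higher and 5 lower; without normalization 4 and 1 passed. Gab2, an adaptor of the receptor, was lower (-0.99 ± 0.16; 1 of its 2 probes) through a rise in wild type cells. Stx3, a syntaxin, was lower (-0.80 ± 0.16), but not without normalization or with its 2 probes averaged. Ms4a2, the receptor's beta chain, was lower (-0.53 ± 0.13), while Fcer1a (0.48 ± 0.15) and Fcer1g (-0.0095 ± 0.12) did not pass. Lat, the member called higher, lost its call in 15 of 24 alternatives. Of 12 adenosine and ATP genes, Nt5e and the nucleotide receptor P2ry14 (-0.79 ± 0.14) were lower. The ATP-gated channel P2rx7 (0.96 ± 0.12; 2 of its 5 probes passed, and not with median scaling) and Ada (0.48 ± 0.14) were higher.

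Of 19 p53 targets 7 were lower and 1 higher, at a median of -0.24; the 1 higher, Tnfrsf10b, was at background in all 4 groups, and 5 were lower with median scaling and without normalization. Gadd45a, a stress-induced growth arrest gene, rose in wild type cells from 1896, 1773 and 1726 to 3471, 3525 and 3362. In floxed cells it fell from 932, 878 and 838 to 463, 446 and 506, and the interaction was -1.82 ± 0.12. The antiproliferative gene Btg2 and the BH3-only gene Pmaip1 also rose in wild type and fell in floxed cells (-1.45 ± 0.14, 1 of its 2 probes, and -1.37 ± 0.13). Perp, a membrane protein of desmosomes, fell in both genotypes and further in floxed cells, from 3553, 3048 and 3097 to 378, 378 and 460.5 (-2.35 ± 0.16). The p53 targets Cdkn1a (-0.24 ± 0.12), Mdm2 (-0.24 ± 0.14) and Bbc3 (-0.14 ± 0.15) did not pass. By itself, the drug raised 10 and lowered 1 of the 19 in wild type cells, and raised 6 and lowered 6 in floxed cells. In the BCL2 family limma called 4 of 13 lower and 0 higher (5 and 0 at an unadjusted p under 0.05), Pmaip1, Bid (-0.71 ± 0.17), Bmf (-0.61 ± 0.12) and Bcl2l1 (-0.42 ± 0.12); without normalization 1 gene of the list was lower. In the list of unfolded protein and amino acid stress genes, 2 of 17 were higher and 2 lower, with Sesn2 (-1.10 ± 0.15) and Chac1 (-0.88 ± 0.14) lower and Hspa5 (0.48 ± 0.13) higher beside Atf5.

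Among surface and lysosomal genes, 8 of 19 integrins and adhesion molecules were lower and 3 higher (median -0.22). The beta 2 chain Itgb2 was lower (-1.26 ± 0.12), and Itgae (1.76 ± 0.12), Itga4 (1.48 ± 0.22) and Itgb3 (0.79 ± 0.20) were higher. Of 21 lysosome genes limma called 6 lower and 0 higher (6 and 1 at an unadjusted p under 0.05), though 3 were lower and 1 higher without normalization. Glb1, beta-galactosidase, fell from 14819, 15995 and 13162 to 6043, 5097 and 6763 in floxed cells (-1.22 ± 0.16); Ctsz, cathepsin Z (-1.02 ± 0.13), and Gla, alpha-galactosidase (-0.98 ± 0.11), were lower too. Of 12 MHC class II and costimulation genes limma called 3 lower and 0 higher (4 and 0 at an unadjusted p under 0.05): Cd86 (-1.05 ± 0.14), the invariant chain Cd74 (-0.80 ± 0.11) and H2-Eb1 (-0.39 ± 0.11, adjusted p = 0.0325). The last was above 0, at 0.25, with its 2 probes averaged. Since the drug is an estrogen receptor ligand, 16 estrogen response genes were listed. By itself, the drug raised 2 and lowered 3 of them in wild type cells (median -0.0072), and raised 3 and lowered 5 in floxed cells. In the interaction, where an effect common to both genotypes cancels, 2 were higher and 5 lower. Myc (-1.23 ± 0.21), the oxygenase Cyp1b1 (-0.93 ± 0.11) and the receptor gene Esr1 (-0.79 ± 0.12) were the largest, all below 0. Their drug effects were -1.08, -0.78 and -0.68 in floxed cells and 0.14, 0.15 and 0.11 in wild type cells. The part of estrogen receptors in these results was not tested.

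Monocyte and macrophage markers went both ways, 4 of 13 higher and 3 lower. Cx3cr1, the fractalkine receptor, rose from 423, 548 and 533 to 2516, 2398 and 2159.8 in floxed cells (2.37 ± 0.17), and Adgre1, which encodes F4/80, fell from 5268, 6416 and 6328 to 1596, 1717 and 1454 (-2.05 ± 0.16). The summed intensity of 6 macrophage markers was 3070 to 3340 in treated floxed cells, 6768 to 8115 in untreated floxed and 8562 to 10124 in wild type cells. Adgre1 made up most of the sum in untreated floxed cells, and its fall weighs on the sum. Of the 6 macrophage markers, 2 were higher in the interaction (C1qa, 1.29 ± 0.12, and C1qb, 1.05 ± 0.27) and Adgre1 was lower. The part of macrophages in these results was not tested. The 5 eosinophil markers summed to 10560 to 10827 in treated floxed, 7219 to 8214 in untreated floxed and 3278 to 4261 in wild type cells. Of these 5 markers, 1 was higher and 1 lower in the interaction, so the sum does not stand for all of them. The part of eosinophils was not tested. Of the eosinophil list, Prg2, major basic protein, was higher (0.80 ± 0.11, not called with median scaling), while Siglecf was lower (-0.77 ± 0.13). B cell, T and NK cell and erythroid markers summed to at most 132.5 on any array, and Ms4a1, Pax5, Cd3d, Ncr1, Alas2 and Slc4a1 were at background in all groups. In these lists, limma called 0 of 7 B cell and 0 of 6 erythroid genes (2 and 1 at an unadjusted p under 0.05), and 1 of 10 T and NK cell genes, Thy1. Of 6 megakaryocyte genes Pf4 (0.78 ± 0.18) and Vwf (0.68 ± 0.13) were higher and Plek (-0.53 ± 0.11) lower. Neither Pf4 nor Vwf was called with median scaling. The summed intensity of 4 megakaryocyte markers was 10313 to 11998 on untreated and 12943 to 14162 on treated wild type arrays. On floxed arrays it was 4031 to 5182 without and 8154.5 to 10630.5 with the drug. Of the 4 markers 1 was higher in the interaction and 0 lower. The part of megakaryocytes in these results was not tested.

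Without the drug, 17.3% of all genes differed between the genotypes (9.39% higher and 7.90% lower in floxed cells). This split depended on scaling too. The share higher in floxed cells among called genes was 54.3% here, 74.3% with median scaling and 35.2% without between-array normalization. It was 48.5% with scaling on probes over 100. The list counts for untreated cells below were taken with quantile normalization alone. Of 20 interferon-stimulated genes, 18 were lower in untreated floxed than in untreated wild type cells (median -2.16), whereas 2 were higher and 1 lower in the interaction. The 3 were Cxcl10, Oas3 (0.93 ± 0.16) and Ifi27l2a, which fell in both genotypes and further in floxed cells (-1.45 ± 0.14). Of 20 mitosis genes, 14 were higher in untreated floxed cells. In the interaction limma called 0 higher (1 at an unadjusted p under 0.05) and 2 lower (7 unadjusted), Aurkb (-0.56 ± 0.11) and Tpx2 (-0.53 ± 0.11). Neither was called without normalization. Of 21 S phase genes, 16 were higher in untreated floxed cells, and in the interaction the primase Prim1 was higher (0.70 ± 0.16, not with median scaling) and Cdc45 (-0.66 ± 0.11, not without normalization) and Mcm6 (-0.59 ± 0.12) lower. Of 22 cholesterol and fatty acid genes, 4 were higher in the interaction (0 with median scaling), led by Idi1 (0.84 ± 0.14) and Fdps (0.79 ± 0.18), and Scd1 was lower (-1.01 ± 0.15). In these 3 genes the drug effect passed in wild type cells alone. Of 20 immediate early genes, 2 were higher, with Dusp2 (1.58 ± 0.21) leading, and 3 lower, with Btg2 and Zfp36 (-0.80 ± 0.12). Ankrd37 (0.68 ± 0.12) was the 1 of 19 glycolysis and hypoxia genes that was called, and Ywhaz (0.52 ± 0.12) the 1 of 8 housekeeping genes; neither was called with median scaling. The medians of the lists of blood cell transcription factors, C/EBP factors, IgE signalling, adenosine, cytokines, S phase, lysosome, cholesterol, interferon, immediate early, stress response, glycolysis, housekeeping, eosinophil, macrophage and megakaryocyte genes changed sign between scalings, so no direction is given for them as lists.

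The 6 arrays outside the experiment gave another readout of the same genes: basophils purified from bone marrow 3 days after mice received interleukin-3 complexed with antibody, and mast cells grown from marrow for 4 weeks in 20 ng/ml interleukin-3, with 3 arrays each. Between them 42.1% of all genes passed the test, 19.3% higher in basophils and 22.9% higher in mast cells. Of the 1226 genes with an interaction above 0, 621 (50.7%) were higher in mast cells and 208 (17.0%) in basophils. Of the 1256 genes below 0, 655 (52.1%) were higher in basophils and 228 (18.2%) in mast cells. At interactions of at least 1 log2 unit, the shares were 63.6% higher in mast cells (194 of 305) and 73.4% higher in basophils (185 of 252). The median difference of basophils minus mast cells was -1.15 and 1.51 log2 units in these, against -0.045 over all genes. Many of all genes are at background, so the 10950 genes above it in all 4 groups are given too: 32.2% of them were higher in mast cells and 26.5% in basophils. Among them, 156 of 233 genes (67.0%) with an interaction of at least 1 log2 unit above 0 were higher in mast cells, and 160 of 209 (76.6%) below 0 were higher in basophils. For called genes of any interaction size, the share of those above 0 that were higher in mast cells lay between 46.3% and 61.3% over all alternatives. For those below 0, the share higher in basophils lay between 48.3% and 62.5%. No such range was computed for the genes of at least 1 log2 unit. In these 6 arrays, cell type cannot be told apart from culture or from the interleukin-3 complex given to mice. The genes called in the experiment were a minority of those that differed between the purified basophils and the cultured mast cells. They held 14.2% of the genes higher in mast cells as interactions above 0, and 17.8% of those higher in basophils as interactions below 0.

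**Figure D5:**
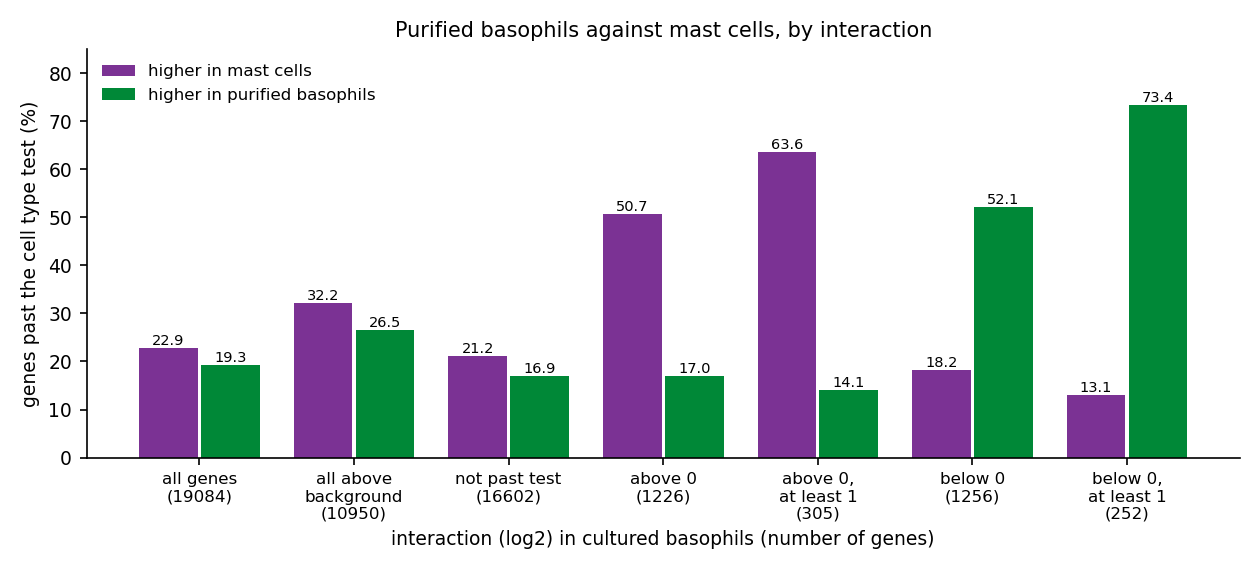
Share of genes (y axis, %) that passed the test higher in mast cells or higher in purified basophils, for all genes and for genes grouped by their interaction in cultured basophils (x axis). Among genes with an interaction of at least 1 log2 unit, 63.6% of those above 0 were higher in mast cells and 73.4% of those below 0 higher in basophils, against 22.9% and 19.3% of all genes and 32.2% and 26.5% of genes above background in all 4 groups.

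Single genes departed from that pattern. Igf2, Ahi1, Clca1, Myb and Amigo2, with interactions among the largest here, differed by -0.077, 0.25, -0.055, 0.021 and 0.0059 log2 units (basophils minus mast cells), and none of the 5 passed that test. Cldn11 did not pass it either (-0.05). Gzma (1.27) and Cnga1 (3.27) had interactions above 0 and were higher in basophils, and Cyp1b1 (-4.73) and Esr1 (-1.98) had interactions below 0 and were higher in mast cells. Tpsg1 (-6.20), Tpsb2 (-7.53), Mcpt2 (-9.51), Hs6st2 (-7.41), Kit (-5.78) and Mitf (-4.92) were higher in mast cells, and Mpo (7.31), Igsf6 (6.77), Cxcr2 (5.78) and Id1 (5.67) higher in basophils.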

How the data were processed

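Per the labels' protocols, RNA was isolated with Trizol, cleaned on RNeasy columns, labelled with Cy5 and put on arrays read in 1 colour. The authors deposited linear probe intensities, already background-subtracted as values below 0 show (743 to 906 probes per array). Which scanner and software were used, and whether values were normalized before deposit, is not stated in the labels or headers. The 12 arrays were quantile normalized, and transformed as log2(intensity + 16). A mean per group was fitted with limma 3.58.1 (R 4.3.3; lmFit, contrasts.fit and eBayes). Tests were two-sided at 0.05 after Benjamini-Hochberg adjustment of the p-values of all 26423 probes. The 6 arrays of purified basophils and mast cells were normalized and fitted apart.

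Each gene was represented by its brightest probe, judged by the mean of the 18 arrays. Of 26423 probes 21876 had 1 symbol in the platform annotation, and 2424 genes had several probes. A group was at background where a probe was at most 30 on its 3 arrays; its values were then raised to 30 for bounds. Named genes were Cebpa, Mitf, Tpsg1, Nt5e and Cldn11, the 10 highest and 10 lowest interactions above background with a range under 2 log2 units within groups, the 5 highest and 5 lowest bounds, the 3 highest and 3 lowest of each drug effect class, and up to 3 members of each list. Other list members were named after their values were seen. The members and the 32 lists (462 measured genes) were chosen with earlier results of these data known.

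Alternatives were median scaling, no between-array normalization, array weights, an offset of 50, a replicate block, eBayes with an intensity trend, plain variances, removal of the dimmest 30% of probes, all 18 arrays in the fit, averaged probes, a minimum of 1 log2 unit and each array left out. Scaling on probes over 100, a fit of probes above background, the cell type readout for genes above background and a mast cell marker sum without Cpa3 were added after seeing the data. The fit was tested on simulated data for the interaction (26423 probes). Changes were planted only in probes with a mean intensity over 100. The fit recovered 20.9% of 67 probes given a change of 0.5 log2 units, 80.6% of 67 given 1 and 100% of 66 given 2. It made 5 false calls. Recovery in dimmer probes, or with as many changes as in the data, was not tested.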

Additional observations from a re-analysis of the deposited data

Results flagged for a closer look

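The test of the difference between the genotypes' drug effects passed for 2482 genes, and among the named genes 29 had drug effects that passed in both genotypes in opposite directions. Of these, 15 rose with the drug in floxed cells and fell in wild type cells. Their interactions on the log2 scale were largest in Tpsg1 (4.44), Tpsb2 (4.00), Clca1 (3.73), Frzb (3.33) and Gzma (3.16). Smaller values were found for Gm5544 (2.71), Mitf (2.50), Myb (2.32), Ccr2 (2.29), Hkdc1 (2.21), Atf5 (1.97), Jcad (1.92), Dusp2 (1.58), Ltc4s (1.11) and Prg2 (0.80). The other 14 fell in floxed cells and rose in wild type cells. Largest here were Nt5e (-4.17), Mpo (-3.42), Prtn3 (-3.09), Akr1c18 (-2.89) and Amigo2 (-2.75). The remaining values were those of Elane (-2.17), Gadd45a (-1.82), Il18rap (-1.61), Btg2 (-1.45), Thy1 (-1.42), Pmaip1 (-1.37), Csf1 (-1.32), Hspa1b (-1.25) and Cd9 (-1.24). Gm5544, Jcad, Hkdc1, Elane and Hspa1b had at least 1 group at background, so their fitted values depend on the offset, and the bounds in the report hold for them. The effect of Mitf in wild type cells and the effects of Ltc4s and Prg2 in both genotypes were not called with median scaling. In wild type cells those of Csf1, Hspa1b, Il18rap and Prtn3 were not called without normalization. The floxed effects of Cd9, Dusp2 and Thy1 were not called with some single arrays left out.

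Probes that carry no gene symbol were not used for the gene results. Of 4547 such probes, 231 (5.08%) passed the interaction test, 107 above and 124 below 0, against 11.3% of all 26423 probes.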

How the results depend on the processing

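The interaction was called for 1228 genes with median scaling (341 above 0) and for 2482 here, and without between-array normalization 2237 genes were above and 565 below 0. At a size of at least 1 log2 unit, 557 genes remained by definition, 305 above and 252 below 0. With median scaling the drug effect in floxed cells passed for 2610 genes and the drug effect in wild type cells for 2471. Leaving out each array in turn gave 1914 to 2403 interactions (941 to 1164 above and 963 to 1239 below 0), 3212 to 3953 drug effects in floxed and 3345 to 4679 in wild type cells, 2445 to 3340 genotype differences without drug and 6867 to 7460 between cell types. The cause of these shifts was not tested. With the replicate number as a block 2033 genes passed, 1992 of them among the 2482. The numbers do not pair the arrays: 3 of 18 same-number pairs deviated together with r over 0.1 (median -0.048), and 1 of 12 arrays correlated best with its own number. Of 108 named genes, 82 kept their call in all 24 alternatives. With all probes of a gene averaged, H2-Eb1 turned to 0.25 in the interaction and to 0.24 in its floxed drug effect, and the floxed drug effect of Tpx2 turned to 0.082. Limits are 3 arrays a group, an unknown history of the replicates, floxed cells that differed before treatment, dim probes that give bounds only, and a split of directions set by scaling.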
